A study of Canis lupus familiaris with 45 samples.

Results

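The matrix proteases and their inhibitors described here are every gene on the canine array whose symbol begins with MMP or ADAM and a number, or with ADAMTS, together with the TIMP genes. The rule used the symbols of the platform table and no measured value, and it found 59 of the 15115 genes named by a probe set of their own, on 108 of 42924 probe sets. They are 21 matrix metalloproteinases (MMP), 16 ADAM genes, 14 ADAMTS genes, 5 ADAMTS-like genes (ADAMTSL) and 3 inhibitors, TIMP1, TIMP2 and TIMP3. Each gene was read at its brightest probe set, the one with the highest mean over all 45 arrays. ADAM12, ADAM17, ADAMTS1 and TIMP4 had no probe set named for that gene alone in the platform table and were not analysed here.

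The arrays measured subcutaneous adipose tissue of 9 intact female beagles aged 4 years. The 5 ad libitum dogs (animals 2, 5, 6, 7 and 8) could eat freely from week 0 on, and the 4 control dogs (animals 1, 3, 4 and 9) received enough of the same diet to hold their weight. Biopsies followed a night without food, and each dog gave 1 array at each of weeks 0, 4, 8, 12 and 24. All values are log2 GCRMA values, so a difference of 1 is a 2-fold difference in signal, and values of a week are listed in the order of the animal numbers just given.

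Fat cells sit in a net of collagen, fibronectin and basement membrane, and an expanding fat cell needs this net loosened and rebuilt. MMPs are zinc proteases, secreted or held at the membrane, that cut collagens, gelatin and other matrix proteins. ADAM proteases mostly release the outer parts of membrane proteins, and ADAMTS proteases process procollagens and cut proteoglycans such as aggrecan and versican. ADAMTSL proteins resemble ADAMTS proteases but lack the protease domain. The TIMPs bind the active site of MMPs, and TIMP3 also inhibits several ADAM and ADAMTS proteases.

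Some arrays stand apart from their labels or from the rest. The 21 measured skeletal muscle markers averaged log2 8.75 to 14.84 on 10 of the 45 arrays and 4.02 to 6.05 on the other 35. These 10 arrays were dogs 5, 7 and 8 at week 0 and dog 7 at weeks 8 and 12 in the ad libitum group, and dogs 1 and 3 at week 0, dog 4 at week 8 and dogs 3 and 4 at week 24 in the control group. By the 100 probe sets that best separate the dogs, 43 of 45 arrays matched their labelled dog. The exceptions were the week-8 array labelled dog 5, which matched control dog 9 (r = 0.909), and the week-8 array labelled dog 9, which matched ad libitum dog 5 (r = 0.797). The labels were kept, so week-8 values and comparisons below include both arrays unless stated, and the mismatch crosses the feeding groups. All week-24 arrays share a laboratory batch that holds no other week, so a change from week 0 to week 24 cannot be told apart from a change of batch. The actin 3' minus 5' signal, a measure of RNA quality, averaged 3.51 ± 0.91 in ad libitum dogs and 4.79 ± 1.20 in control dogs at week 24 (SD, n = 5 and 4). At week 4 it ran from 1.4 to 2.04 in ad libitum dogs (mean 1.75) and from 2.76 to 3.39 in control dogs (mean 3), without overlap. In ad libitum dogs it averaged 2.85 at week 0.

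Of the 59 genes, 28 were above log2 4 on at least 4 arrays and were tested: 10 of 21 MMP, 6 of 16 ADAM, 7 of 14 ADAMTS, 2 of 5 ADAMTSL and 3 of 3 TIMP genes. The mean was 4 or more for 25 genes and below 4 for 34. Of those 34 genes, 28 were never above 4 on any array, and 3, ADAM28, MMP1 and ADAMTSL3, were still tested because at least 4 arrays were above it. MMP7, MMP11 and ADAMTSL5 were above 4 on 1 to 3 arrays and were not tested. The brightest probe sets were those of MMP2 (mean 12.83), TIMP1 (11.70), TIMP2 (11.59), TIMP3 (11.23) and ADAM10 (10.37). Signals of different probe sets depend on the probes, so their order is no order of transcript amounts.

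**Figure D1:**
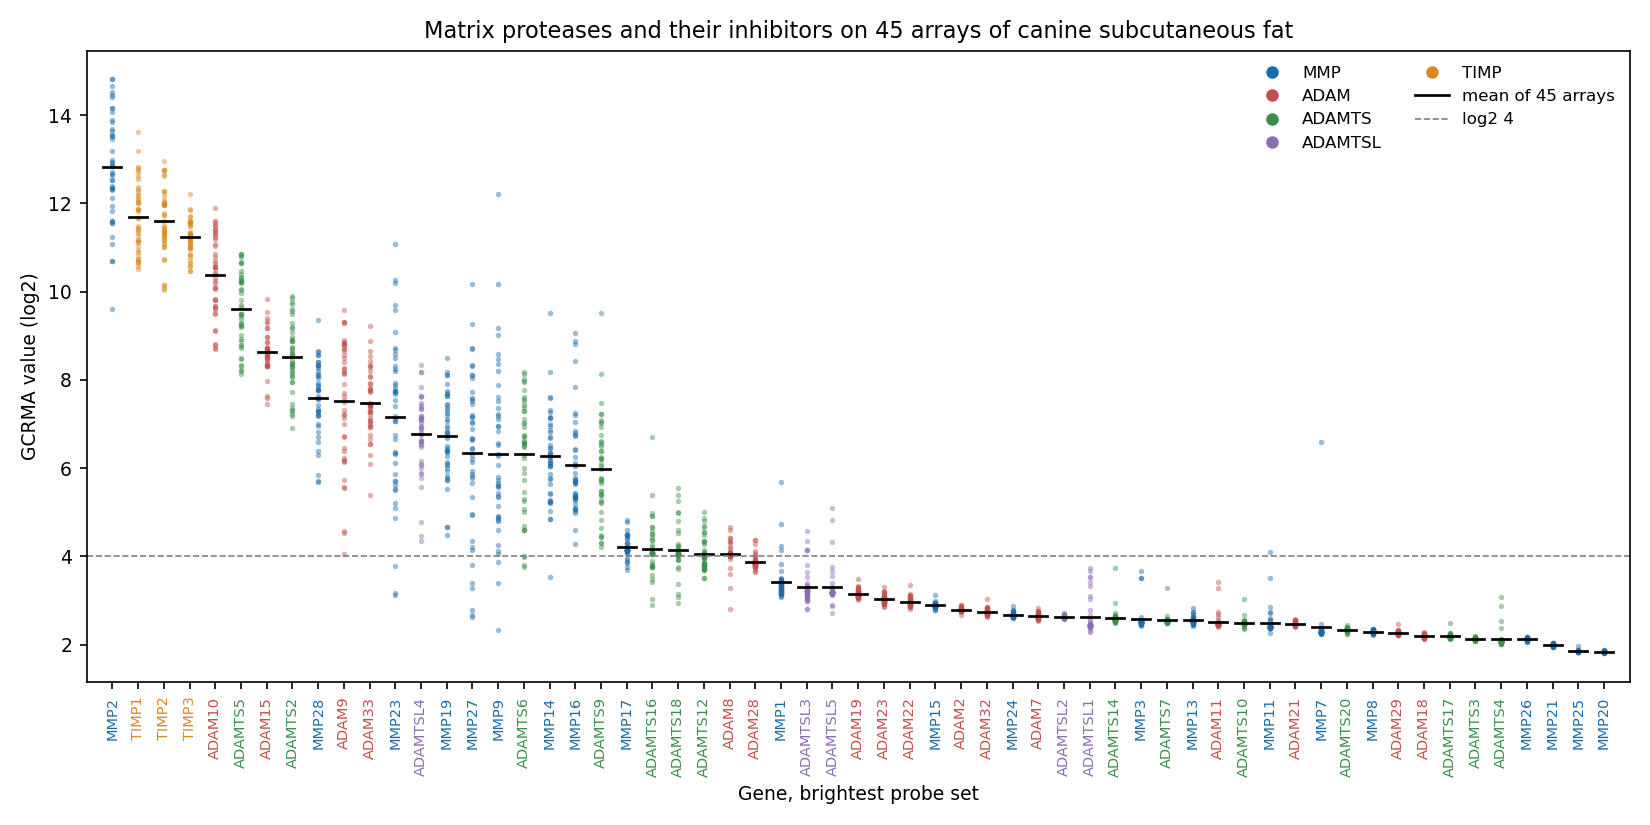
Log2 GCRMA values of the 59 genes on the vertical axis, 1 point per array for 45 arrays, with genes ordered by mean (black bars) and coloured by class; the dashed line is log2 4. A group of 20 genes from MMP2 to ADAMTS9 has means of 5.97 or more, and 28 genes never reach the line.

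At the adjusted threshold of 0.05, 4 of the 28 tested genes passed in at least 1 of the 18 comparisons: ADAMTS2, MMP28, ADAM33 and MMP16. That is 14.3% of the genes, against 20.1% of all 22690 tested probe sets (4569) called in at least 1 comparison, so the share of called genes was no larger than that of all probe sets. ADAMTS2, which removes the amino-terminal propeptide of procollagens, rose in ad libitum dogs at weeks 4, 8 and 12. MMP28, a secreted protease also called epilysin, was higher in ad libitum than in control dogs at week 24. ADAM33, a membrane-anchored protease of mesenchymal cells, and MMP16, a membrane-type MMP, rose in control dogs at week 24. A change from week 0 to week 24 is also a change of batch. In whole tissue, fewer cells of a type and less RNA per cell cannot be told apart.

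Direct comparisons of ad libitum with control dogs called 1 of 28 genes at week 24, against 5.46% of all 22690 tested probe sets. Limma called 0 of 28 genes at week 0 (0% of all probe sets), week 4 (0.0132%), week 8 (1.42%) and week 12 (0.00441%). At an unadjusted limma p under 0.05 those 4 weeks gave 0, 3, 5 and 4 of 28 genes, against 1.38%, 9.08%, 25% and 11.1% of all probe sets. At week 24 the same cut gave 4 genes, against 22.7% of all probe sets. The feeding effect subtracts the mean change since week 0 of the control dogs from that of the ad libitum dogs. It called 0 of 28 genes at week 4 (0%), week 8 (0%), week 12 (0%) and week 24 (0.022%). Averaged over the 4 weeks the feeding effect also called 0 of 28 genes (0%). At an unadjusted p under 0.05 limma gave 2, 0, 1 and 2 of 28 genes for the weekly feeding effects, against 7.81%, 8.66%, 5.35% and 10.2% of all probe sets. For their average it gave 0 genes, against 4.23%.

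Changes from week 0 within ad libitum dogs called 1 of 28 genes at week 4 (0.498% of all probe sets), week 8 (6.73%) and week 12 (0.802%). At week 24 that change called 0 of 28 (4.78%), with 3 genes at an unadjusted limma p under 0.05, against 21.8% of all probe sets. Within control dogs, limma called 0 of 28 genes at week 4 (0.00441%), week 8 (0%) and week 12 (0%), with 4, 1 and 7 genes at an unadjusted p under 0.05, against 24.1%, 1.42% and 17.8% of all probe sets. At week 24 the control change called 2 of 28 (7.92%). At week 8 in ad libitum dogs, 1 called gene of 28 is a smaller share than that of all probe sets.

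MMP28 had log2 8.64, 5.69, 7.89, 8.27 and 8.33 in the ad libitum dogs at week 24, against 6.70, 5.71, 5.84 and 6.83 in the control dogs. Ad libitum dog 5 was as low as the lowest control, and the other ad libitum dogs were all above every control dog. Ad libitum dogs averaged 7.77 ± 1.19 and control dogs 6.27 ± 0.58 (SD, n = 5 and 4), a difference of 1.49 (SE 0.441, 2.82-fold, adjusted p = 0.0406). The other tested MMP28 probe set, with a mean of 5.27, differed by 2.56 (SE 0.663, adjusted p = 0.0207). At week 0 MMP28 averaged 7.70 ± 0.58 in ad libitum and 7.17 ± 0.57 in control dogs. Against week 0, the MMP28 change at week 24 was -0.11 in ad libitum dogs (adjusted p = 0.903) and -0.87 in control dogs (adjusted p = 0.251). The feeding effect on MMP28 at week 24, 0.76 (SE 0.631), did not pass (adjusted p = 0.704).

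The MMP28 call at week 24 depended on the arrays used. Without the arrays carrying muscle transcripts, which include control dogs 3 and 4 at week 24, the difference was 1.00 (adjusted p = 0.418). With the actin measure as a covariate it was 0.89 (adjusted p = 0.531). Leaving out dog 1, 2, 3, 4, 6, 7, 8 or 9 gave 1.27 to 1.68 with adjusted p between 0.0585 and 0.179, and leaving out dog 5 gave 2.01 (adjusted p = 0.000854). Adipocyte markers moved with MMP28, with all 14 differences positive at week 24 (median 0.74). Of these, 4 passed, DGAT2, AQP7, LEP and LIPE, when 5.46% of all probe sets were called. All 14 differences were also positive at week 0, before the feeding change (median 0.22), and 0 passed. For the feeding effect at week 24 all 14 markers had positive values and 0 passed. Their level at week 24, as a mean of 14 genes, was 11.71 to 13.87 in ad libitum and 11.32 to 12.70 in control dogs. The part of this marker difference in the MMP28 result was not tested.

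**Figure D2:**
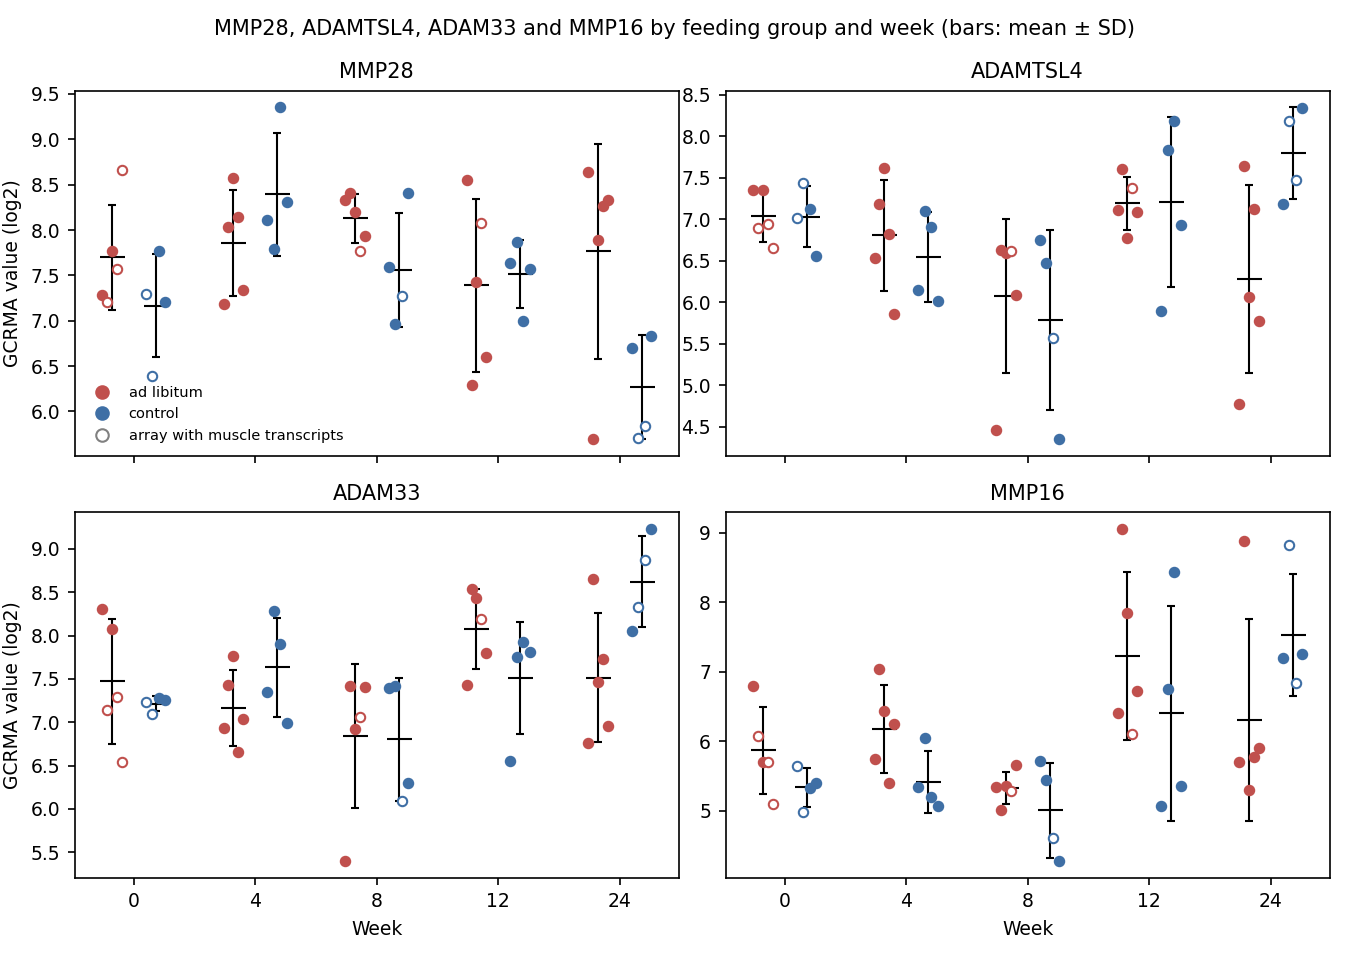
Log2 GCRMA values of MMP28, ADAMTSL4, ADAM33 and MMP16 by week, with ad libitum dogs left of control dogs; points are arrays (open where muscle transcripts were found) and bars are mean ± SD (n = 5 and 4). At week 24 MMP28 averaged 7.77 in ad libitum and 6.27 in control dogs, while ADAM33 averaged 7.51 in ad libitum and 8.62 in control dogs.

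MMP2, or gelatinase A, cuts denatured collagen and type IV collagen, and it had the brightest probe set. At week 24 it had log2 10.70, 14.41, 12.99, 12.53 and 11.82 in ad libitum dogs, against 13.54, 14.45, 14.16 and 12.85 in control dogs. The ranges overlapped, with ad libitum dog 2 lowest and dog 5 near the top. The difference of -1.26 (SE 0.718) did not pass (adjusted p = 0.299), and neither did the averaged feeding effect of -0.77 (SE 0.836). Over the course MMP2 was lowest at week 8 in both groups, at 11.51 ± 1.10 in ad libitum and 12.37 ± 1.73 in control dogs, and highest at week 12, at 13.87 ± 1.02 in ad libitum and 13.94 ± 1.01 in control dogs.

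MMP9, or gelatinase B, is made largely by neutrophils and macrophages and was the most variable of the 59 genes. It ran from 2.32 in control dog 4 at week 8 to 12.22 in ad libitum dog 5 at week 24 (SD over 45 arrays 1.89). At week 24 MMP9 had 6.27, 12.22, 4.12, 6.32 and 8.37 in ad libitum dogs, against 7.62, 8.48, 3.86 and 6.06 in control dogs. The groups overlapped widely, and 1 ad libitum dog set the highest value. The difference of 0.95 (SE 1.28) was far smaller than the spread between dogs (adjusted p = 0.704). The ad libitum array with 12.22 also had the highest macrophage marker mean of the 45 arrays, 10.52, while its neutrophil marker mean of 7.31 ranked 18 of 45.

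MMP19, a secreted protease of basement membrane components, averaged 7.64 ± 0.56 in ad libitum dogs at week 4, against 6.31 ± 0.56 at week 0. That change, 1.10 (SE 0.553), was seen in 5 of 5 dogs and did not pass (adjusted p = 0.543). MMP27, a less studied secreted MMP, varied from 2.63 to 10.18 and averaged 5.29 in ad libitum dogs at week 24 and 7.29 in control dogs, with overlapping ranges. Its difference there, -1.99 (SE 1.11), was the largest negative value of the 28 genes and did not pass (adjusted p = 0.288). MMP1, the interstitial collagenase, was above 4 on 4 arrays, with its highest value of 5.69 in control dog 9 at week 12. In the direct comparison at week 12 it differed by -0.75 (SE 0.329, adjusted p = 0.451), and without control dog 9 by -0.07 (adjusted p = 0.957). With array weights MMP1 differed by -1.31 (adjusted p = 0.00416), but its mean of 3.42 is near background, where differences cannot be read.

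The MMP1 and MMP27 genes lie close together with MMP13, MMP3, MMP8, MMP20 and MMP7 in the RefSeq gene order. Of these 7 genes MMP27 alone had a mean above 4, at 6.34. MMP3, the stromelysin, reached at most 3.67, MMP13, a collagenase, at most 2.84, and MMP8, the neutrophil collagenase, at most 2.35. MMP7, the epithelial matrilysin, had 6.59 in control dog 9 at week 12 and was otherwise near its mean of 2.39. MMP11, or stromelysin 3, had a mean of 2.50 and passed log2 4 on 1 array.

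Among the membrane-type enzymes, MMP16 rose in control dogs at week 24. It had 7.20, 8.82, 6.84 and 7.25 in control dogs at week 24, against 5.64, 4.98, 5.32 and 5.40 in the same dogs at week 0. All 4 dogs were higher at week 24 and the weeks did not overlap. The change was 2.11 (SE 0.65, adjusted p = 0.0391). In ad libitum dogs at week 24 MMP16 had 5.70, 8.88, 5.30, 5.77 and 5.90, and dog 5 stood far above the others. The direct difference at week 24, -1.22 (SE 0.614), did not pass (adjusted p = 0.231). Without dog 5 it was -1.86 (adjusted p = 0.0178).

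The MMP16 change in control dogs was 1.58 (adjusted p = 0.637) without arrays carrying muscle transcripts, which removes dogs 1 and 3 at week 0 and dogs 3 and 4 at week 24. With the actin covariate it was 1.98 (adjusted p = 0.482), and without dog 3 it was 1.41 (adjusted p = 0.434). Leaving out dog 1, 2, 6, 7 or 9 gave adjusted p between 0.0525 and 0.109. The fibroblast marker mean was 13.01 to 13.79 in control dogs at week 24 and 12.31 to 12.84 at week 0. Of the 13 fibroblast and preadipocyte markers, 12 had positive changes and 0 passed. The adipocyte marker mean was 11.32 to 12.70 in control dogs at week 24 and 12.19 to 13.26 at week 0. When 7.92% of all probe sets were called, 3 of the 14 adipocyte markers, CIDEC, DGAT2 and GPD1, fell, and 2 had positive changes. Their mean had r = -0.735 with MMP16 and -0.619 with ADAM33 over the 45 arrays. The part of these markers in the MMP16 and ADAM33 changes was not tested.

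MMP14, the pericellular collagenase that also activates proMMP2, had 6.26, 9.51, 8.19 and 6.34 in control dogs at week 12, against 5.28, 4.85, 5.77 and 6.06 at week 0. All 4 dogs were higher and the weeks did not overlap, yet the change of 1.94 (SE 0.588) did not pass (adjusted p = 0.234). At week 8 MMP14 averaged 6.83 ± 0.31 in ad libitum and 5.74 ± 1.57 in control dogs, a difference of 1.08 (SE 0.528, adjusted p = 0.198). MMP23, an MMP without the haemopexin domain, had 8.20, 11.09, 10.20, 7.68 and 8.68 in ad libitum dogs at week 12, against 7.74, 6.74, 6.65, 5.72 and 5.20 at week 0. Every dog was higher at week 12, though dog 7 at week 12 was below dog 2 at week 0, and the change of 2.89 (SE 0.97) did not pass (adjusted p = 0.158). MMP17, a membrane enzyme with a lipid anchor, was at most 4.82 on any of the 45 arrays.

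Among the ADAM genes, ADAM33 rose in control dogs at week 24. It had 8.06, 8.33, 8.87 and 9.23 at week 24, against 7.24, 7.09, 7.28 and 7.26 at week 0. The lowest week-24 value was above the highest week-0 value, a change of 1.46 (SE 0.433, adjusted p = 0.0331). The other tested ADAM33 probe set changed by 1.47 (SE 0.43, adjusted p = 0.0307). The feeding effect on ADAM33 at week 24, -1.31 (SE 0.584), did not pass (adjusted p = 0.444). The direct difference at that week, with 7.51 ± 0.75 in ad libitum and 8.62 ± 0.53 in control dogs, was -1.11 (adjusted p = 0.0984).

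The ADAM33 change was 0.68 (adjusted p = 0.805) with the actin covariate and 1.21 (adjusted p = 0.544) without arrays carrying muscle transcripts. Leaving out dog 3 gave 1.28 (adjusted p = 0.219). Leaving out dog 6, 7 or 9 gave adjusted p between 0.0539 and 0.154.

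ADAM10, which sheds Notch receptors and many other membrane proteins, had 9.60, 8.70, 8.72, 10.58 and 9.82 in ad libitum dogs at week 8, against 10.69, 11.04, 10.43 and 9.66 in control dogs. The groups overlapped, and the difference of -1.04 (SE 0.417) did not pass (adjusted p = 0.125). These values include the mismatched arrays labelled dogs 5 and 9, which cross the feeding groups. Over 22 alternatives, leaving out these arrays among them, the difference ran from -1.34 to -0.65 and 0 passed. In week 12 the ADAM10 difference was positive, 1.02 (SE 0.45, adjusted p = 0.451). ADAM9, another sheddase, also differed in sign between weeks. It averaged 8.13 ± 1.28 in ad libitum and 5.53 ± 1.01 in control dogs at week 4, a difference of 2.65 (SE 0.901, adjusted p = 0.378), and differed by -1.62 (SE 0.766, adjusted p = 0.183) at week 8. No laboratory batch held week-4 arrays of both groups, so direct differences at week 4 rest on the batch terms. The actin measure of RNA quality also differed between the groups at week 4, without overlap.

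ADAM15, which carries an integrin-binding disintegrin domain, averaged 8.97 in ad libitum and 8.35 in control dogs at week 8, a difference of 0.61 (SE 0.244, adjusted p = 0.123). ADAM8, known from leukocytes, was at 2.81 to 4.66 on all arrays. ADAM28, known from lymphocytes, was above 4 on 7 arrays and at most 4.38. ADAM9 lies close to ADAM18, ADAM2 and ADAM32 in the RefSeq order, and these 3 were at most 2.28, 2.91 and 3.02 on any array.

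ADAMTS2 passed at 3 weeks in ad libitum dogs, and each of the other 3 called genes passed at 1 week. It had 8.67, 9.56, 9.91, 9.16 and 8.36 in ad libitum dogs at week 4, against 7.96, 7.22, 8.14, 6.90 and 7.94 at week 0. All 5 dogs were higher and the weeks did not overlap, a change of 1.64 (SE 0.383, 3.11-fold, adjusted p = 0.0377). At week 8 it had 8.09, 8.38, 9.61, 8.75 and 8.92, higher than week 0 in 5 of 5 dogs but with ranges that met, and the change was 1.23 (SE 0.375, adjusted p = 0.0438). In week 12 it had 8.88, 9.85, 9.72, 9.07 and 8.59, all above every week-0 value, and the change was 1.52 (SE 0.366, adjusted p = 0.037).

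At week 24 ADAMTS2 had 8.23, 9.48, 8.88, 8.73 and 8.46 in ad libitum dogs, still above all week-0 values. The change of 1.10 (SE 0.361) no longer passed at this probe set (adjusted p = 0.0684). The other 2 tested ADAMTS2 probe sets passed there, with 1.04 (SE 0.307, adjusted p = 0.0443) and 1.70 (SE 0.373, adjusted p = 0.00782).

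In control dogs ADAMTS2 had 8.07, 7.19, 8.18 and 7.31 at week 0, 8.59, 8.33, 8.96 and 7.72 at week 4, and 8.53, 7.35, 7.46 and 8.29 at week 8. At week 12 these dogs had 7.29, 9.28, 9.76 and 9.19, and at week 24 they had 8.38, 8.88, 8.30 and 8.63. Control values at week 24 were thus all above those at week 0, and 3 of 4 dogs were higher at week 12. The control changes were 0.71 at week 4 (adjusted p = 0.28), 1.45 at week 12 (adjusted p = 0.234) and 0.95 at week 24 (adjusted p = 0.129). Without dog 1, the control whose value was low at week 12, the control change at week 12 was 2.15 (adjusted p = 0.00393). Dog 1 was singled out by this low value. Without it ADAM15, ADAMTSL3, MMP14 and MMP23 passed as well, so the shift was not particular to ADAMTS2. The feeding effects on ADAMTS2 were 0.93 at week 4 (SE 0.594, adjusted p = 0.688), 0.84 at week 8 (SE 0.534, adjusted p = 0.619), 0.07 at week 12 (SE 0.577, adjusted p = 0.976) and 0.15 at week 24 (SE 0.537, adjusted p = 0.95). None of these passed. With array weights the feeding effect on ADAMTS2 at week 8 was 1.45 (adjusted p = 0.0427) and the direct difference at week 8 was 1.08 (adjusted p = 0.0317). Array weights called a larger share of all probe sets than the reported fit, in which this feeding effect called 0 of 22690. Week 8 also holds the 2 mismatched arrays, so neither value can be read as a result about ADAMTS2.

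**Figure D3:**
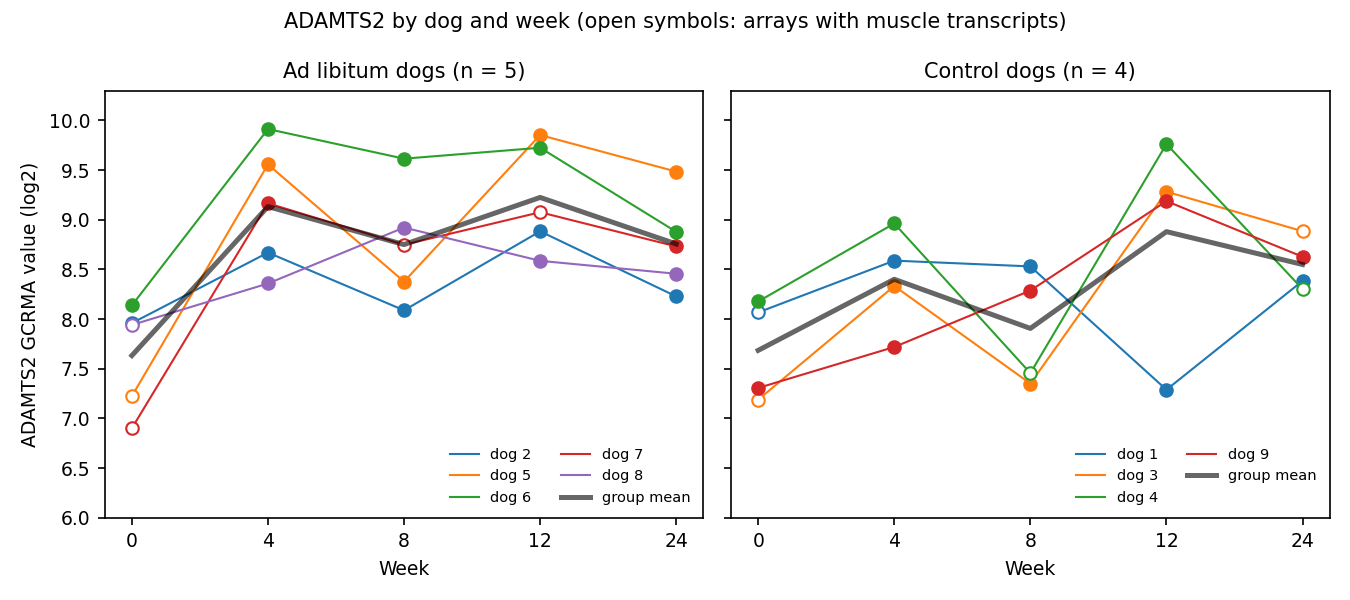
Log2 GCRMA values of ADAMTS2 by week, 1 line per dog, in ad libitum (left, n = 5) and control dogs (right, n = 4); the thick line is the group mean and open symbols are arrays with muscle transcripts. Ad libitum means were 7.63 at week 0 and 9.13 at week 4, and control means were 7.69 at week 0 and 8.40 at week 4.

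The low week-0 values of ADAMTS2 in ad libitum dogs included dogs 5, 7 and 8, whose week-0 arrays carry muscle transcripts. Without such arrays the changes were 1.89 at week 4 (adjusted p = 0.231), 1.32 at week 8 (adjusted p = 0.168) and 1.58 at week 12 (adjusted p = 0.273), from fewer arrays. Skeletal muscle markers in ad libitum dogs averaged 8.80 ± 4.47 at week 0 and 4.66 ± 0.30 at week 4. Their part in the ADAMTS2 change was not tested beyond leaving these arrays out.

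With both mismatched week-8 arrays left out, the ADAMTS2 change at week 8 was 1.26 (adjusted p = 0.0816). The actin covariate gave 1.60 at week 4 (adjusted p = 0.0577), 1.16 at week 8 (adjusted p = 0.104) and 1.49 at week 12 (adjusted p = 0.0452). Leaving out dog 2, 5, 6, 7 or 9 left ADAMTS2 short of the threshold at each of the 3 weeks. Adjusted p then lay between 0.0979 and 0.302 at week 4, between 0.0965 and 0.214 at week 8 and between 0.0563 and 0.318 at week 12. Within single batches that held both weeks, ad libitum arrays at week 12 were higher than those at week 0 by 2.56 in batch 1, 1.68 in batch 2 and 0.65 in batch 4. At week 4 the within-batch differences were 1.73 in batch 3 and 0.98 in batch 4. In batches 1, 3 and 4 the week-0 side was 1 array each, of dogs 7, 5 and 8, and each of these carries muscle transcripts. In batch 2 the comparison set 1 week-12 array against 2 week-0 arrays without muscle transcripts.

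ADAMTS5, an aggrecanase, had 10.33, 10.65, 10.22, 10.65 and 10.23 in ad libitum dogs at week 24, against 9.50, 10.26, 8.72 and 9.44 in control dogs. All ad libitum dogs were above 3 of the 4 controls, and control dog 3 lay within their range. The difference of 0.93 (SE 0.419) did not pass (adjusted p = 0.177), and at week 0 it was already 0.58 (SE 0.43). ADAMTS9, which cuts aggrecan and versican, had 7.10, 5.75, 8.13, 7.01 and 7.22 in ad libitum dogs at week 24, against 6.94, 4.43, 5.40 and 6.23 in control dogs. Dog 5 lay among the controls, and the difference of 1.29 (SE 0.676) did not pass (adjusted p = 0.25). For the averaged feeding effect ADAMTS9 had the smallest p of the positive values, 1.07 (SE 0.786, adjusted p = 1).

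ADAMTS6, a protease related to ADAMTS10, had a change of -1.72 (SE 0.768, adjusted p = 0.156) at week 8 in ad libitum dogs. Without the arrays carrying muscle transcripts it was -3.75 (adjusted p = 0.0483), without dog 8 it was -3.08 (adjusted p = 0.00695), and without dog 2 it was -0.94 (adjusted p = 0.603). With the mean of its tested probe sets it was -0.83 (adjusted p = 0.207). Its 2 tested probe sets followed each other weakly (r = 0.318 over 45 arrays), so its level depends on the probe set. ADAMTS16 had 6.71 in ad libitum dog 5 at week 12, against 4.08 to 4.58 in the other ad libitum dogs. Its change at week 12 was 1.15 (SE 0.375, adjusted p = 0.149). ADAMTS12 and ADAMTS18 had means of 4.06 and 4.14, and the aggrecanase ADAMTS4 was never above 3.07.

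ADAMTSL4, a matrix protein that binds fibrillin microfibrils, had 4.78, 7.64, 6.06, 7.13 and 5.77 in ad libitum dogs at week 24, against 7.18, 8.19, 7.48 and 8.34 in control dogs. Dog 5 alone reached into the control range. The difference was -1.52 (SE 0.518, adjusted p = 0.0739) at the brightest probe set and -1.28 (SE 0.344, adjusted p = 0.0257) at the other tested one, whose mean was 4.54. Without dog 5 the brightest probe set gave -1.86 (adjusted p = 0.022). Without dog 5, 4 of 28 genes passed at week 24, MMP28, ADAMTSL4, ADAM33 and MMP16, against 13.6% of all probe sets (3097 of 22690). Leaving out each of the other dogs gave 0 of 28. ADAMTSL3 had a mean of 3.32 and differed by -0.66 (SE 0.276, adjusted p = 0.451) at week 12.

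**Figure D4:**
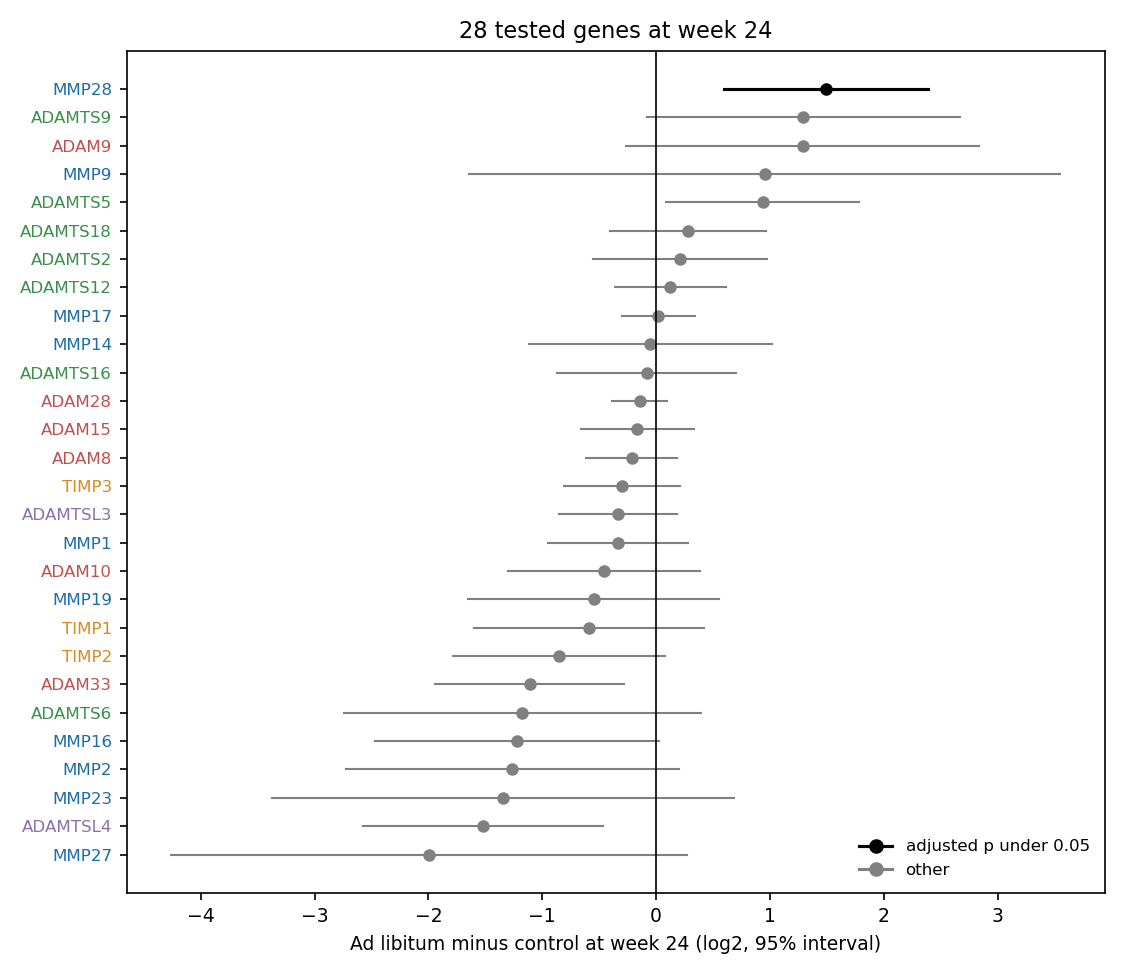
Difference of ad libitum minus control dogs at week 24 for the 28 tested genes on the horizontal axis (log2), with 95% intervals from the fit; black marks the gene past the adjusted threshold. MMP28 lies at 1.49, ADAMTSL4 at -1.52 and MMP27 at -1.99, and 9 of the 28 values are positive.

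The 3 inhibitors did not pass in the fit reported here. With array weights TIMP1 passed once, for its change at week 12 in ad libitum dogs (0.92, adjusted p = 0.0477). The share of all probe sets called under that setting is not given here, so this call cannot be read as a result about TIMP1. TIMP1 had 10.70, 13.61, 10.66, 10.83 and 11.43 in ad libitum dogs at week 24, against 12.20, 12.37, 11.48 and 12.11 in control dogs. Dog 5 was the highest of all 45 arrays and the other 4 ad libitum dogs were below every control dog. The difference was -0.59 (SE 0.498, adjusted p = 0.509). TIMP1 averaged 12.14 ± 0.75 in ad libitum dogs at week 4, against 11.49 ± 0.44 at week 0, a change of 0.90 (SE 0.507, adjusted p = 0.608).

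TIMP2, which also helps MMP14 to activate proMMP2, had 10.03, 12.29, 11.49, 11.61 and 11.11 in ad libitum dogs at week 24, against 11.98, 12.66, 12.03 and 11.96 in control dogs. Again dog 5 alone reached into the control range, and the difference was -0.85 (SE 0.457, adjusted p = 0.264). TIMP3, the inhibitor bound to the matrix, was the steadiest of the 3, with an SD of 0.39 over 45 arrays. It differed by -0.30 (SE 0.25, adjusted p = 0.507) at week 24, and its 95% interval there ran from -0.81 to 0.21.

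The remaining genes with the smallest p of each sign are given by comparison, as values that did not pass. At week 0 MMP28, ADAMTS5 and ADAMTS18 differed by 0.74, 0.58 and 0.47, and TIMP1, ADAMTS16 and MMP9 by -0.35, -0.26 and -0.84. At week 4 ADAMTS2 and ADAMTS5 differed by 0.99 and 1.10, and ADAM8, MMP28 and ADAMTSL3 by -0.40, -0.81 and -0.28. At week 8 ADAMTS2 differed by 0.90 (adjusted p = 0.14, and 0.0437 with a difference of 1.22 without dog 1), and ADAMTS6 by -1.04. At week 12 ADAMTS5 and ADAMTS6 differed by 1.29 and 1.27, and MMP14 by -0.94.

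None of the weekly feeding effects on the 28 genes passed. At week 4 ADAM9 and MMP9 had 2.92 and 2.94, and MMP28, ADAM8 and ADAMTS18 had -1.55, -0.54 and -0.76. At week 8 MMP9 and TIMP1 had 2.10 and 0.74, and ADAM10, ADAM9 and MMP2 had -0.92, -1.35 and -1.06. At week 12 ADAM10, ADAM9 and ADAMTS5 had 1.15, 1.48 and 0.70, and MMP1, ADAMTS12 and MMP14 had -1.02, -0.67 and -1.26. At week 24 ADAMTS9 and ADAM9 had 1.47 and 1.56, and ADAMTSL4 and MMP16 had -1.55 and -1.62. On average over the weeks MMP9 and ADAM9 had 1.94 and 1.15, and MMP1, ADAM8 and ADAMTS18 had -0.50, -0.31 and -0.46.

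Changes from week 0 that did not pass are listed the same way. In ad libitum dogs ADAM8, ADAMTS18 and ADAM10 had estimates of -0.35, -0.33 and -0.33 at week 4. At week 8 their ADAM15 and MMP14 estimates were 0.38 and 0.83, and those of ADAM10 and MMP27 were -1.05 and -2.04. The ADAM10 estimate at week 8 was -1.93 (adjusted p = 0.0402) without arrays carrying muscle transcripts, -1.83 (adjusted p = 0.00183) without dog 8 and -0.61 (adjusted p = 0.64) without dog 5. At week 12 the estimates were -0.39 for ADAMTS18, -0.46 for MMP28 and -0.25 for TIMP3. At week 24 they were 1.33 for ADAMTS9 and 1.49 for ADAM9, and -0.36 for ADAM8, -0.74 for ADAMTSL4 and -1.31 for MMP27.

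In control dogs the estimates at week 4 were 1.48 for MMP28, 0.73 for ADAM15, -2.32 for ADAM9, -1.05 for ADAM10 and -1.13 for ADAMTS6. At week 8 they were 0.39 for ADAMTS18, 0.38 for ADAMTS2, 0.29 for MMP1, -1.18 for ADAMTSL4, -0.74 for TIMP1 and -0.27 for TIMP3. At week 12 they were 0.69 for ADAM15, -1.02 for ADAM10, -1.18 for ADAMTS6 and -1.12 for ADAM9. At week 24 they were -0.10 for MMP17 and -0.07 for ADAMTS18. Over all 28 genes the median difference at week 24 was -0.26, against 0.01 for all tested probe sets. The median change at week 24 was 0.03 in ad libitum and 0.49 in control dogs, against 0.02 and 0.03 for all probe sets in the same groups. Week 24 is also another batch. At week 12 the median change was positive in both groups, 0.38 in ad libitum and 0.46 in control dogs, against 6.35e-05 and 0.0875 for all probe sets.

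Other parts of the system were read from lists of genes. Their 23 calls were also computed without some arrays, alternatives chosen after the data were seen. Without arrays carrying muscle transcripts 7 of the 23 still passed, with the actin covariate 11, and without the mismatched week-8 arrays 21. Leaving out each dog in turn left 4 (without dog 2) to 18 of them (without dog 1 or 8), and all 23 kept their sign under each of these settings. A list call given below without such values may therefore not pass under these settings. Of the 7 tested genes of the plasminogen system, which activates several proMMPs, 1 was higher and 0 were lower in ad libitum dogs at week 24, when 5.46% of all probe sets were called. It was PLGRKT, a plasminogen receptor, at 8.71 in ad libitum and 6.77 in control dogs (difference 1.95, SE 0.376, adjusted p = 0.00332, no overlap), and it was 1.88 (adjusted p = 0.116) without arrays carrying muscle transcripts. The next smallest p was that of PLAT, the tissue plasminogen activator, at -0.75 (SE 0.444, adjusted p = 0.319). Against week 0, PLGRKT and ANXA2, an annexin that binds plasminogen, rose in ad libitum dogs at week 24 by 1.26 and 0.39. In control dogs ANXA2 rose at week 24 by 0.38, and it was the sole gene of the list to do so. These changes at week 24 cannot be told apart from a change of batch.

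Of 16 tested other inhibitors and activators, 1 was higher and 0 lower at week 24, when 5.46% of all probe sets were called. It was TSPAN17, a tetraspanin partner of ADAM10, which averaged 9.01 in ad libitum and 7.79 in control dogs (difference 1.23, SE 0.293, adjusted p = 0.0127). PAPLN encodes papilin, whose Drosophila form inhibits procollagen N-proteinase. It was higher in ad libitum than in control dogs at week 8, at 6.60 and 5.02, by 1.61 (SE 0.424, adjusted p = 0.0484, 5 of 5 dogs, no overlap). These values include the mismatched arrays labelled dogs 5 and 9, and without them the difference was 1.82 (adjusted p = 0.0972). Relative to week 0, PAPLN rose in ad libitum dogs by 1.89 at week 8 (SE 0.42, adjusted p = 0.0122, and 0.015 with a change of 2.02 without the mismatched arrays) and by 1.33 at week 24 (SE 0.405, adjusted p = 0.0495). LRP1, a receptor that clears proteases from the cell surface, rose in control dogs at week 24 by 1.00 (SE 0.245, adjusted p = 0.0116). Both week-24 changes are also changes of batch.

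Of 16 tested other secreted and lysosomal matrix proteases, limma called 0 at week 24, against 5.46% of all probe sets. CTSZ and CTSD, lysosomal cathepsins, had the smallest p there, at 0.48 (SE 0.181, adjusted p = 0.103) and 0.55 (SE 0.231, adjusted p = 0.145). CTSC, cathepsin C, rose in ad libitum dogs at week 12 by 1.13 (SE 0.276, adjusted p = 0.0429). FAP, a fibroblast surface protease that is also a listed fibroblast marker, fell in ad libitum dogs at week 8 to 6.78, against 9.38 at week 0 (adjusted p = 0.026).

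Of 26 tested matrix substrates, 2 were higher and 0 lower in ad libitum dogs at week 24, when 5.46% of all probe sets were called. They were NID2, a nidogen of basement membranes, by 1.67 (SE 0.439, adjusted p = 0.0223), and COL15A1, a basement membrane collagen, by 1.15 (SE 0.332, adjusted p = 0.0365). At week 24, 2 of the 4 control arrays carry muscle transcripts, and over all lists 7 of 23 calls still passed without such arrays. Against week 0, 3 of 26 substrates rose in ad libitum dogs at week 4 and 0 fell, against 0.498% of all probe sets called: COL4A1 by 0.92, COL4A2 by 0.89 and NID1 by 1.14. The same 3 genes rose at week 8, by 0.79, 0.78 and 1.22, against 6.73% of all probe sets called. On the week-0 side 3 of 5 arrays carry muscle transcripts. Without such arrays the week-4 changes were 1.04 for COL4A1 (adjusted p = 0.0835), 1.04 for COL4A2 (adjusted p = 0.043) and 1.49 for NID1 (adjusted p = 0.176). At week 8 they were 0.91, 0.96 and 1.49 without such arrays (adjusted p = 0.0208, 0.0111 and 0.032). COL4A1 and COL4A2 are chains of type IV collagen and NID1 is a nidogen, so all 3 belong to basement membranes. None of the 3 passed for the feeding effect at week 4 or 8, where 0 of 22690 probe sets were called. At week 12 NID1 rose by 1.05, and at week 24 NID1 rose by 0.92 and HSPG2, or perlecan, by 0.72. In control dogs HSPG2 rose at week 24 by 0.68. The changes from week 0 to week 24 are also changes of batch.

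Across the 45 arrays, which come from 9 dogs and share batches and extracts, the 28 genes followed cell type markers to different degrees. These correlations are descriptions without a test. MMP28 followed the mean of the 14 adipocyte markers (Pearson r = 0.87, Spearman rho = 0.84), and r was 0.83 without the 2 arrays farthest from the median. It ran against the fibroblast and preadipocyte markers (r = -0.64). MMP27 (r = 0.86), MMP2 (0.85), TIMP2 (0.81), MMP16 (0.80), MMP23 (0.79), ADAMTSL4 (0.77) and ADAM33 (0.73) followed the fibroblast markers. This was not particular to fibroblast markers. The same 7 genes had r of 0.63 to 0.73 with the mast cell markers and of 0.61 to 0.73 with the macrophage markers. Each of these 7 genes had a negative r with the adipocyte markers, such as -0.76 for MMP27 and -0.69 for MMP2. After group and batch means were removed, r was 0.87 for MMP28 with adipocyte markers and 0.88 for MMP27 with fibroblast markers.

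**Figure D5:**
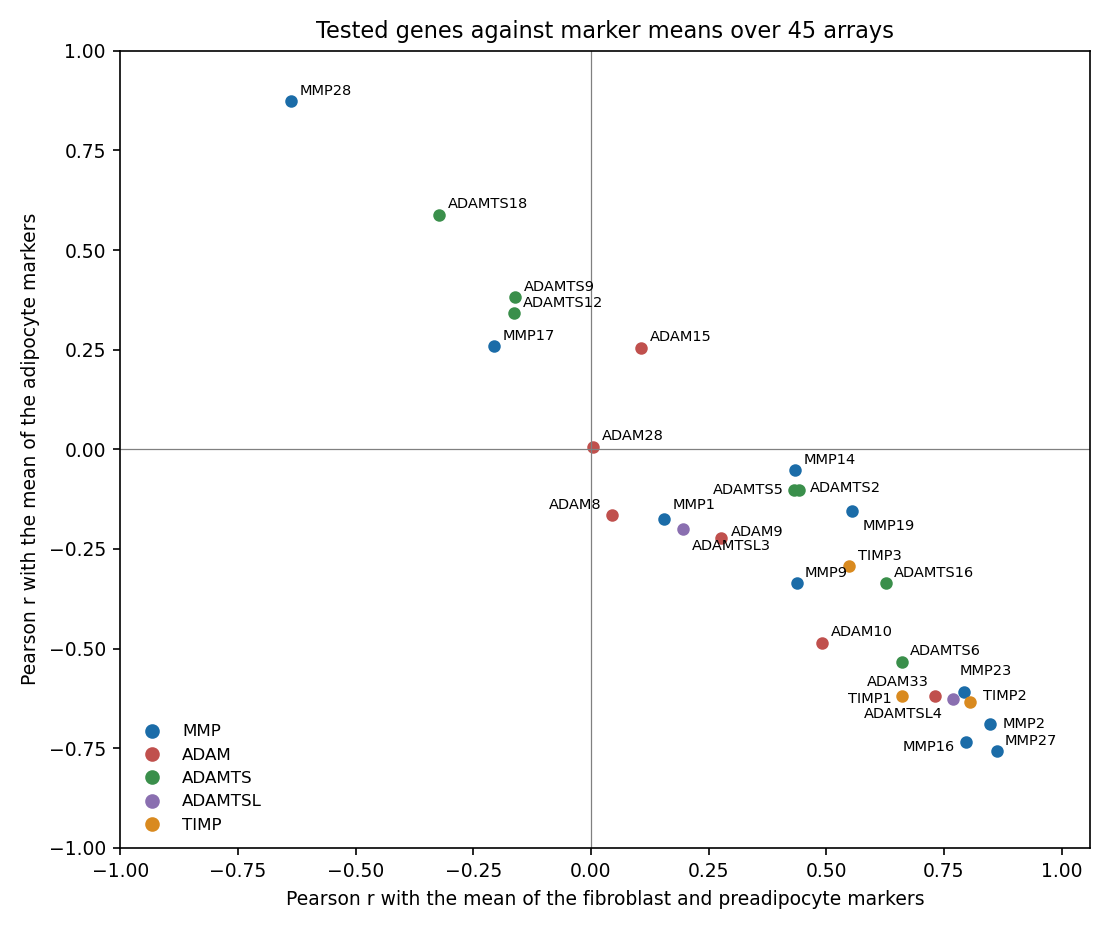
Pearson r of each tested gene over 45 arrays with the mean of the fibroblast and preadipocyte markers (horizontal axis) and with the mean of the adipocyte markers (vertical axis), 1 point per gene. MMP28 lies alone at -0.64 and 0.87, and MMP27 and MMP2 lie at the opposite corner, at 0.86 and -0.76 and at 0.85 and -0.69.

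MMP9 had its highest r with the macrophage markers, 0.63, and TIMP2, MMP27 and MMP2 had 0.73, 0.69 and 0.68 with the same markers. TIMP1 had its highest r with the mast cell markers, 0.77. With the muscle markers, r was -0.55 for ADAM15, -0.49 for MMP19 and -0.43 for ADAMTS2, and Spearman rho was -0.05, -0.33 and -0.07. Over the 35 arrays without muscle transcripts, ADAMTS2 and the muscle markers had r = 0.30. The members most like MMP2 were TIMP2 (r = 0.92), MMP27 (0.87) and MMP23 (0.78). Those most like TIMP1 were MMP23 (r = 0.78), MMP16 (0.65) and MMP27 (0.64), and those most like ADAMTS2 were MMP23 (0.66), ADAM15 (0.64) and ADAMTS16 (0.63).

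How far genes kept a level of their own in each dog was estimated from 9 dogs. The correlation between arrays of 1 dog, after group, week and batch, was highest at 0.477 for MMP9, 0.475 for MMP2, 0.447 for ADAMTS18, 0.422 for MMP27 and 0.393 for ADAMTS9, against 0.00562 in common over all probe sets. At the other end of the 28 genes it was -0.189 for ADAM9 and -0.186 for ADAM10 and ADAMTS5. ADAMTS18, with a mean of 4.14, was close to the detection level. Averaged over its 5 arrays, MMP2 was lowest in ad libitum dog 2 at 11.41 and highest in control dog 3 at 13.92. MMP9 was lowest in control dog 4 at 4.45 and highest in ad libitum dog 5 at 8.52, a mean that includes the week-8 array that matched dog 9. ADAMTS2 and MMP28 had little of this, with correlations of 0.0246 and 0.0269.

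A few arrays held several extremes. Ad libitum dog 5 at week 24 had the highest MMP9 and TIMP1 and the lowest MMP28 of all arrays, and its macrophage marker mean of 10.52 was the highest of all. The same dog at week 12 had the highest MMP23, MMP27, MMP16, MMP19 and ADAMTS16, at 11.09, 10.18, 9.05, 8.50 and 6.71. Control dog 9 at week 12 had the highest MMP1 and MMP7, and its T and NK cell marker mean of 6.87 was the highest of the 45. Ad libitum dog 2 at week 8 had the lowest MMP2, MMP23 and ADAM33 values, at 9.60, 3.12 and 5.40, together with the lowest fibroblast marker mean, 11.28.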

How the data were processed

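The deposited table held log2 values of 43035 probe sets on 45 arrays, made by the authors with GCRMA per the submitters' processing notes. For its version and any batch correction or filter, the sources used here give nothing. The number of arrays limits the precision, and array medians lay between 3.60 and 3.83. Gene symbols came from the platform table, and 57 of the 59 members have a gene ID in the RefSeq table.

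Control probe sets were dropped, and 22690 probe sets above log2 4 on at least 4 arrays were tested. With R 4.3.3, limma 3.58.1 and statmod 1.5.0, a model with 10 group and week means and terms for the laboratory batches was fitted across all of them. The dog, given by the animal number in the labels, was a random block (common correlation 0.00562, so same-dog arrays hardly moved together over all probe sets). p-values were Benjamini-Hochberg adjusted over all tested probe sets, with a threshold of 0.05. All 18 comparisons came from this fit, including the weekly feeding effects and the changes at weeks 4 and 8, which were added to the written design. The model was tested on simulated data.

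Named are members past the threshold, per comparison the 3 positive and 3 negative values of smallest p, the brightest and most variable members, and a fixed set of well-known members; of the other lists, genes past the threshold or with the smallest p at week 24. Members and lists were chosen with earlier results of these data known. Alternatives were other filters, scalings, probe set rules, batch and dog terms, an RNA quality covariate, array weights, and leaving out arrays or each dog; those for the other lists were chosen after the data were seen.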

Additional observations from a re-analysis of the deposited data

Results flagged for a closer look

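Among 280 sets of arrays (28 tested genes in 10 groups of 4 or 5 dogs), 31 held a dog far from the others of its group, which is 11.1%. For normally distributed values the cut used gives about 1 in 20 by chance. Several of the flagged genes, such as MMP1, ADAM8, ADAMTS16 and ADAMTS18, have means near log2 4, where values need not be so distributed. The share therefore cannot be read as an excess over chance. In 0 of 112 gene and week pairs did all ad libitum dogs change one way and all control dogs the other. Ad libitum dog 2 at week 8 held 4 of these values, low for ADAM33 (5.40), ADAMTSL4 (4.46), MMP2 (9.60) and TIMP2 (10.08). Ad libitum dog 5 at week 24 also held 4, high for MMP16 (8.88), TIMP1 (13.61) and ADAMTS16 (4.91) and low for MMP28 (5.69). Control dog 9 at week 12 held 3, for ADAM8 (4.66), MMP1 (5.69) and MMP17 (4.52).

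In other ad libitum dogs, far values were found at week 0 for MMP1 in dog 2 (4.73) and ADAMTS16 in dog 7 (2.89). At week 4 they were ADAMTS9 in dog 2 (9.51), ADAMTS12 in dog 5 (4.88) and ADAMTS18 in dog 7 (4.97). At week 12 they were ADAMTS16 in dog 5 (6.71) and ADAM28 in dog 6 (4.38).

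In other control dogs, far values at week 0 were TIMP2 in dog 1 (12.24) and ADAM8 in dog 4 (4.19). At week 4 they were ADAMTS12 (3.71) and MMP1 (4.23) in dog 3, MMP17 in dog 4 (4.82), and ADAMTSL3 (4.13) and MMP23 (3.79) in dog 9. At week 8 they were ADAM15 in dog 4 (7.63) and ADAMTS18 in dog 9 (5.40), the last on an array that matched ad libitum dog 5. At week 12 it was ADAM33 in dog 1 (6.55). At week 24 they were TIMP2 (12.66) and ADAMTSL3 (4.34) in dog 3 and ADAMTS18 in dog 4 (3.08).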

How the results depend on the processing

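Over 18 comparisons, 330 of 396 counts of called genes under an alternative stayed within 1.5 times the reported count and 66 did not. A count of 0 against a reported 0 was taken as within it. Of 1072 single-gene values 0 reversed. These came from 49 results with an unadjusted limma p under 0.05, refitted on mostly the same arrays. Such totals therefore do not show how firm the calls are. Of 22 alternatives, MMP28 in the direct comparison at week 24 passed in 9. The ADAMTS2 change at week 8 in ad libitum dogs passed in 13. Treating the dog otherwise changed no count that was computed. With no replicate block, an unpaired fit, the ADAMTS2 change at week 4 was 1.64 (adjusted p = 0.039). The fixed replicate block, a paired fit, gave 1.64 (adjusted p = 0.0323) and was not computed for direct comparisons. With a common correlation of 0.00562 the unpaired fit could hardly differ from the reported fit. The direct comparison at week 24 called 0 genes without the filter on low values, with median centring, without arrays with muscle transcripts, with the actin covariate or with the arrays of that week alone, 2 with the mean of all probe sets and 4 with array weights. Array weights called 1 gene, ADAMTS2, in the direct comparison at week 8 (1.08) and in the feeding effect at week 8 (1.45), and 6 in the direct comparison at week 12, against 8.2%, 7.87% and 24.9% of all probe sets. For ad libitum dogs, the change at week 4 called 0 without the filter, without muscle arrays or with the actin covariate and 4 with array weights. The change at week 8 called 0 without the filter, without both mismatched week-8 arrays or with the actin covariate, 2 without muscle arrays, ADAM10 (-1.93) and ADAMTS6 (-3.75), against 8.69% of all probe sets, and 4 with array weights (33.3%). The change at week 12 called 0 without the filter or without muscle arrays and 8 with array weights, TIMP1 (0.92) among them, and that at week 24 called 1 with the mean of all probe sets, the most variable probe set or array weights. For control dogs, the change at week 12 called 5 with array weights, and that at week 24 called 0 without the filter, without muscle arrays or with the actin covariate. Leaving out each dog in turn gave 0 to 1 genes in the direct comparison at week 8 and 0 to 4 at week 24. In ad libitum dogs it gave 0 to 2 at week 4, 0 to 4 at week 8, 0 to 1 at week 12 and 0 to 1 at week 24. In control dogs it gave 0 to 3 at week 4, 0 to 5 at week 12 and 0 to 2 at week 24. Without dog 8 the ad libitum change at week 8 called ADAM10 (-1.83), ADAM9 (-2.53) and ADAMTS6 (-3.08) as well as ADAMTS2, against 25.6% of all probe sets. Without dog 1 the control change called MMP28 (1.83), ADAM15 (1.00) and ADAM9 (-3.17) at week 4, and ADAMTS2 (2.15), MMP14 (2.49), MMP23 (3.53), ADAM15 (0.96) and ADAMTSL3 (0.92) at week 12. Counts given here without the share of all probe sets called under the same setting cannot be read as results about these genes. The filter and the smaller sets of arrays change how many probe sets or samples enter, and the cause of the other shifts was not tested. Genes below log2 4 have values near background, where changes cannot be read.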
